A study of Homo sapiens with 9 samples.

Results

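The mitochondrial ribosomal proteins are the nuclear-encoded proteins of the ribosome that works inside mitochondria. Members were all GENCODE rows of the count table whose symbol is MRPL or MRPS followed by a number and at most 1 letter from A to C, together with DAP3, which encodes a small-subunit protein under another name. The rule found 79 rows of 112171 in the table, or of 57820 GENCODE rows, and these carry 77 distinct symbols. Of the 79 rows, 76 passed the filter on low counts, 46 named for the large subunit and 30 for the small one. The 3 rows that did not pass were both MRPL30 rows, which held 0 to 6 counts a library, and a second MRPS17 row with at most 1 count.

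The mitochondrial ribosome translates the few messages encoded by mitochondrial DNA, all of them for membrane subunits of the respiratory chain and ATP synthase. Its large subunit forms the peptide bonds and its small subunit reads the message. Both subunits combine ribosomal RNA made in the mitochondrion with proteins made in the cytosol and imported, some with counterparts in bacterial ribosomes and others specific to mitochondria. Symbols do not always give the position of a protein. MRPS18A and MRPS30 lie in the large subunit of the human particle, and MRPS36 is now assigned to the 2-oxoglutarate dehydrogenase complex. Subunits are therefore counted both by symbol and by structure.

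PANC-1, an established line from a human pancreatic ductal carcinoma, was kept for 12 h in hypoxia in all groups, with 42 nM rakicidin A, 41 nM BE-43547A1 or 0.04% DMSO in the medium. Rakicidin A and BE-43547A1 are related cyclic lipodepsipeptides from bacteria, and DMSO is the solvent control. Each group had 3 libraries of total RNA, and no group was kept in normal oxygen. Whether replicate libraries stem from independent cultures is not stated. Each p-value reflects how far libraries scatter within their groups, estimated over all 9 libraries together and drawn toward the spread of other features. The scatter between libraries could be technical alone.

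The libraries held 26203326 to 45048999 counts on features. The keratins KRT8, KRT18 and KRT19 lay between 731 and 1349 CPM (counts scaled to the library total) in all 9 libraries, while the acinar markers PRSS1, CPA1 and CELA3A, the endocrine markers INS, GCG and SST, and the T cell and endothelial markers CD3E and CDH5 held at most 2 counts. KRT7 lay between 4.67 and 6.87 CPM. Of the other leukocyte and stromal markers, ITGAM lay between 1.41 and 2.86 CPM, highest with BE-43547A1, and COL1A1 between 2.98 and 9.43 CPM, highest in DMSO, while PTPRC, CD14, COL1A2, DCN and PDGFRB held at most 27 counts. The part of these genes' cell types in the results was not tested. DMSO replicate 3 stood apart from the other DMSO libraries, with a chi-square per degree of freedom of 18.9 and 17.1 against them, where the other pairs of replicates gave 2.86 to 9.11. It had the lowest level of its group for 56 of the 76 members, and the nuclear RNA MALAT1 stood at 8879 CPM in it against 4924 and 5003 CPM in the other DMSO libraries. MALAT1 stood at 6658 to 7287 CPM with rakicidin A and higher still, at 10369 to 11691 CPM, with BE-43547A1. The part of DMSO replicate 3 in the results was not tested, and values without it are given where they differ.

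These 6 promoter stretches are shown because they belong to members that fell or rose most among those with 1 start in the promoter table. They are the 100 bases just before the gene start in the RefSeq table for GRCh38.p14, read along the gene's strand, with each CCGGAAG or its reverse complement CTTCCGG, the core bound by ETS-family factors, in capitals. MRPL34, MRPL35 and MRPL15 are not shown. Among the rest with 1 start, the first pair have the largest falls summed over the 2 compounds, the second pair are the falling members with the largest falls among those holding the core, and the last pair had the largest rises with rakicidin A among those that passed the test.
MRPL16, chr11:59810779-59810878, minus strand: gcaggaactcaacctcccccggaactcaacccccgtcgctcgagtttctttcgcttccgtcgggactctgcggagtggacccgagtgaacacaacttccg
MRPL46, chr15:88467389-88467488, minus strand: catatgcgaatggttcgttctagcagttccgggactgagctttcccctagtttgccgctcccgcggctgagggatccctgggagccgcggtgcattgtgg
MRPS26, chr20:3045952-3046051, plus strand: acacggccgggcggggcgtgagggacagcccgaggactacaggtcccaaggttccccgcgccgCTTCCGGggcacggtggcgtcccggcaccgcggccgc
MRPS34, chr16:1773135-1773234, minus strand: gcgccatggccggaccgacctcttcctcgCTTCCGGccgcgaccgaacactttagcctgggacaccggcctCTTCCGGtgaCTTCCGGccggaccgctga
MRPL53, chr2:74472681-74472780, minus strand: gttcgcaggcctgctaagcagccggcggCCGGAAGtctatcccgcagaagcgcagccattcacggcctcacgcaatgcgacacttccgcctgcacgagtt
MRPL54, chr19:3762582-3762681, plus strand: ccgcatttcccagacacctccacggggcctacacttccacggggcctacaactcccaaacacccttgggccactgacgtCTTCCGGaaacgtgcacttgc

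The core stood 3 times in the MRPS34 stretch, once each in those of MRPS26, MRPL53 and MRPL54, and not in those of MRPL16 and MRPL46. Over the 250 bases before the start, searched on both strands, 19 of the 55 members with a single start held it (34.5%), against 1235 of 7088 tested genes (17.4%) and 1969 of all 22114 promoters of that length (8.90%). The NRF1-type letters GCGCANGC were in 29.1% of members, 20.9% of tested genes and 10.8% of all promoters. TATAAA was in 3.64% of members, 5.14% of tested genes and 11.8% of all promoters, and CCAAT in 27.3%, 36.5% and 33.4%. The ATF4-type letters TGATGCAA were in no member, 0.437% of tested genes and 0.895% of all promoters. AANATGGC, the YY1-type letters, were in 5.45%, 4.40% and 3.99%, and the E-box CACGTG in 9.09%, 9.13% and 6.34%, so that the members' shares of both were close to those of tested genes. Of the 19 with the ETS core, 8 fell and 3 rose with rakicidin A (median log2 fold change -0.13). With BE-43547A1, 14 of them fell and 2 rose (median -0.28). Of the 36 without that core, 20 fell and 5 rose with rakicidin A (median -0.21), and 18 fell and 4 rose with BE-43547A1 (median -0.24). Over all features tested, 32.7% fell and 31.9% rose with rakicidin A, and 35.1% and 35.3% with BE-43547A1. A difference by the core was not tested. A match of letters is a description and not a bound site, and the motifs were chosen with results of these data known.

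In the DMSO libraries the members spanned a wide range of levels. Per kilobase of exon, MRPS35, a small-subunit protein specific to mitochondria, was highest at 97.2 ± 9.73 CPM per kb (SD, n = 3). The large-subunit genes MRPL3 and MRPL18 followed at 68.3 ± 4.92 and 67.9 ± 5.96 CPM per kb, which do not differ beyond their spread. The lowest were MRPL53 at 0.893 ± 0.122, MRPL38 at 0.656 ± 0.0986 and MRPS24 at 0.321 ± 0.0619 CPM per kb. The median member stood at 15.9 CPM per kb. Exon lengths are those of GENCODE v29, a later annotation than the one counted, and exons of MRPL53, MRPL38 and MRPS24 overlap other genes by 45.2%, 41.1% and 23.2% of their length, so part of their reads may have been left uncounted.

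Summed over the 76 members, the level was lowest with BE-43547A1. It was 4168, 4140 and 3738 CPM in DMSO replicates 1, 2 and 3, then 3800, 3735 and 3811 CPM with rakicidin A, and 3305, 3373 and 3364 CPM with BE-43547A1. All BE-43547A1 libraries lay below all others, while DMSO replicate 3 lay just above the lowest rakicidin A library. As CPM on unscaled totals, without the correction for composition, the sums were 4299 to 4762 in DMSO, 3350 to 3409 with rakicidin A and 3233 to 3262 with BE-43547A1, with no overlap between groups. In total RNA from a culture, fewer cells and less RNA per cell cannot be told apart, and a summed share of counts shows neither.

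**Figure D1:**
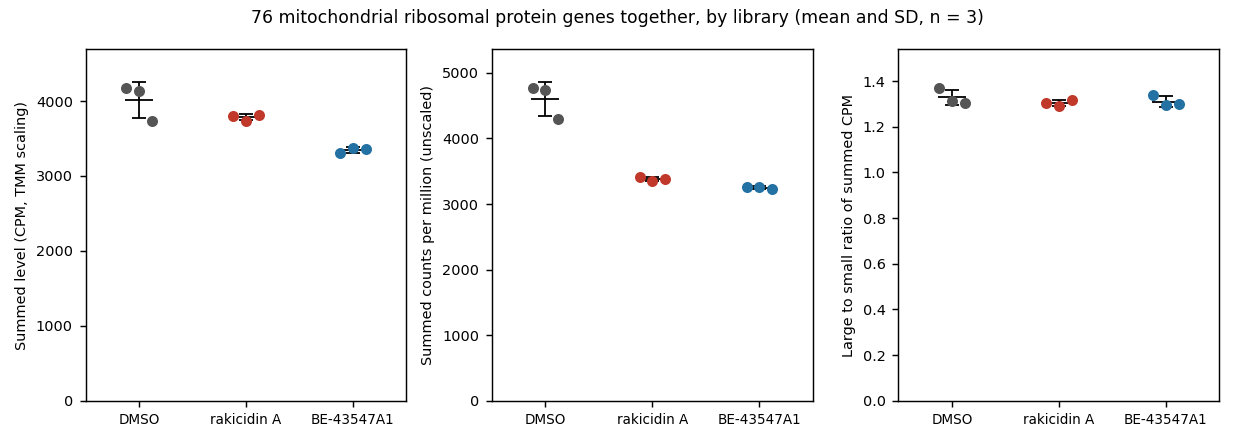
Summed level of the 76 genes in each library (left, CPM with TMM scaling; middle, CPM on unscaled totals) and the ratio of large to small subunit by structure (right), points for libraries, bars for mean and SD (n = 3). BE-43547A1 libraries are lowest in the left and middle panels, and the ratio runs from 1.29 to 1.37 over all 9 libraries with the groups overlapping.

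More members fell than rose with either compound. With rakicidin A, 34 of 76 were lower (44.7%; background 32.7% of 22353 features) and 14 were higher (18.4%; background 31.9%), and 28 did not pass (edgeR quasi-likelihood test, Benjamini-Hochberg adjusted over all features, threshold 0.05). With BE-43547A1, 42 were lower (55.3%; background 35.1%) and 10 were higher (13.2%; background 35.3%), and 24 did not pass. The median member log2 fold change was -0.11 with rakicidin A and -0.27 with BE-43547A1, beside medians of -0.02 and 0.00 over all tested features. Most single changes were small, and the quartiles of the members ran from -0.38 to 0.09 with rakicidin A and from -0.56 to -0.08 with BE-43547A1.

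Between the compounds, 36 members were higher with rakicidin A than with BE-43547A1 (47.4%; background 24.1%) and 10 were lower (13.2%; background 22.5%), with a median of 0.21 beside -0.02 over all features. The doses were 42 and 41 nM, and this is the 1 pair of compounds in the series.

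The 2 comparisons with DMSO share their control libraries, so their calls are only set side by side. By those calls 25 members were lower with both compounds (32.9%; all features 26.1%) and 7 higher with both (9.21%; all features 24.8%). A further 8 were lower and 6 higher with rakicidin A and did not pass with BE-43547A1 (10.5% and 7.89%; all features 5.86% and 5.32%). With BE-43547A1, 16 were lower and 2 higher and did not pass with rakicidin A (21.1% and 2.63%; all features 7.09% and 9.83%). In 2 members the calls had opposite directions, 1 higher and 1 lower with rakicidin A (1.32% each; all features 1.84% and 0.720%). Another 10 passed with neither (13.2%; all features 18.4%). Without DMSO replicate 3, 38 members fell with rakicidin A and 56 with BE-43547A1, where 31.4% and 34.2% of all features fell. The members' median with rakicidin A was then -0.18, over 1.5 times as large, beside -0.02 over all features.

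The number that rose depends on the scaling. With library totals alone in place of TMM factors, the median of all features moved to -0.38 for rakicidin A and -0.24 for BE-43547A1, and 2 members then rose with each compound while 61 and 63 fell. Over all features 20% rose and 51% fell with rakicidin A under that scaling, and 26.6% and 46.7% with BE-43547A1. The rising members were MRPL53 and MRPL15 with rakicidin A and MRPL15 and MRPS6 with BE-43547A1. The members' medians under that scaling were -0.47 and -0.51, again below those of all features. The rises described below are therefore relative to the median feature, and the falls were called under both scalings for every member named for a fall with both compounds.

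**Figure D2:**
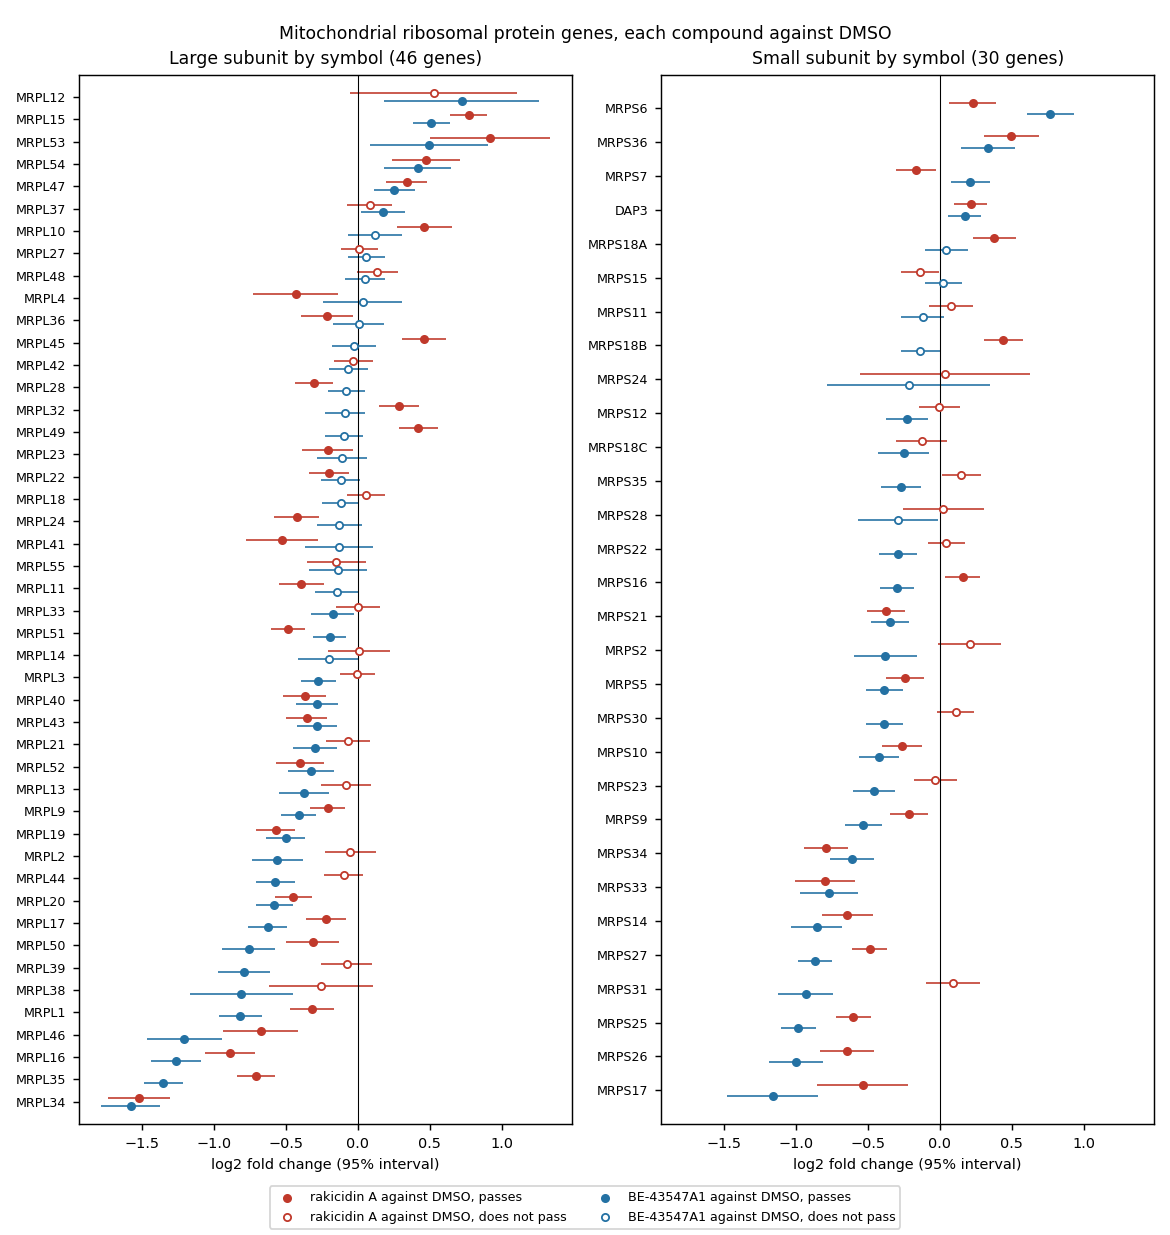
Log2 fold change of each of the 76 genes with its 95% interval for rakicidin A (red) and BE-43547A1 (blue) against DMSO, ordered by the BE-43547A1 value within large (46) and small (30) subunit by symbol; filled points pass the test. MRPL34 lies lowest with both compounds, and MRPS31 and MRPL39 lie near 0 with rakicidin A and far below it with BE-43547A1.

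The subunits had medians of the same sign. By structure, 22 of 48 large-subunit genes fell and 9 rose with rakicidin A (median -0.13), and 12 of 27 small-subunit genes fell and 4 rose (median -0.13). With BE-43547A1, 23 large-subunit genes fell and 6 rose (median -0.16), and 19 small-subunit genes fell and 3 rose (median -0.35). Between the compounds, 22 large and 14 small-subunit genes were higher with rakicidin A and 7 and 3 lower, with medians of 0.17 and 0.25. The shares of all features to read these counts against are those given above, 32.7% lower and 31.9% higher with rakicidin A, 35.1% and 35.3% with BE-43547A1, and 24.1% higher and 22.5% lower between the compounds. By symbol alone the large minus small difference of the medians with rakicidin A was -0.16, and it was 0.00 by structure, since MRPS18A, MRPS30 and MRPS36, which leave the small subunit, have values above 0. No test was made of a difference between the subunits.

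Among the 11 small-subunit genes counted as having no bacterial counterpart, 9 fell and 1 rose with BE-43547A1, with a median of -0.61. The 16 small-subunit genes counted with a counterpart had 10 falls, 2 rises and a median of -0.27. The 20 and 28 large-subunit genes counted without and with a counterpart had medians of -0.17 and -0.16. The split followed a fixed list of symbols, which counted MRPL47, MRPL55 and MRPS28 as without a counterpart. Another assignment of counterparts was not tried. With rakicidin A the 11 genes had 5 falls, 1 rise and a median of -0.03. All 3 MRPS18 paralogs were counted as having a counterpart, with MRPS18B on the small subunit (-0.14 with BE-43547A1, not passing). The same backgrounds apply, and these groups are small.

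**Figure D3:**
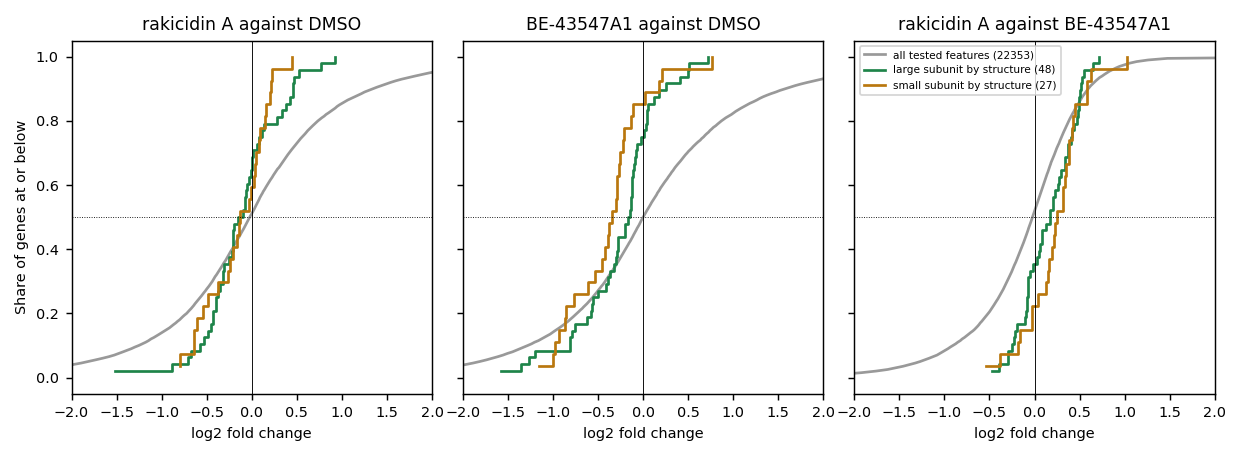
Cumulative share of genes against log2 fold change in the 3 comparisons for large (48) and small (27) subunit genes by structure and for all 22353 tested features. With BE-43547A1 the small-subunit curve lies left of the large-subunit curve over most of its range, and its median is -0.35 beside -0.16.

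MRPL34, a large-subunit protein with a bacterial counterpart, fell most with both compounds. It stood at 12.2, 11.9 and 12.2 CPM in DMSO, at 4.0, 4.22 and 4.42 CPM with rakicidin A and at 4.32, 3.68 and 4.16 CPM with BE-43547A1. All treated libraries lay below all control libraries, and the compounds overlapped. The log2 fold change was -1.52 (SE 0.102, adjusted p = 2.09e-10, edgeR) with rakicidin A and -1.58 (SE 0.0975, adjusted p = 6.19e-11) with BE-43547A1, a level 0.348 and 0.335 times that of DMSO. The compounds differed by 0.05, with a 95% interval of -0.18 to 0.29.

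A further 3 large-subunit genes fell with both compounds and further with BE-43547A1. MRPL16, which has a bacterial counterpart near the peptidyl transferase centre, stood at 38.9, 33.8 and 36.5 CPM in DMSO, 20.4, 17.4 and 21.4 with rakicidin A and 15.4, 15.6 and 14.5 with BE-43547A1. The 3 groups did not overlap, and the log2 fold changes against DMSO were -0.89 (SE 0.0823) and -1.26 (SE 0.0817). MRPL35 stood at 117, 119 and 104 CPM in DMSO, 71.1, 68.3 and 69.2 with rakicidin A and 41.5, 45 and 47.0 with BE-43547A1, again with no overlap. Its log2 fold changes were -0.71 (SE 0.0640) and -1.35 (SE 0.0647), and its level with rakicidin A was 1.56 times that with BE-43547A1 (adjusted p = 2.49e-07, edgeR). MRPL46, specific to mitochondria, fell from 7.82 ± 0.767 CPM (SD, n = 3) to 4.89 ± 0.522 with rakicidin A and 3.38 ± 0.416 with BE-43547A1, and the 3 groups did not overlap. MRPL19 fell to similar levels with both, at 75.1 ± 6.84, 50.5 ± 0.359 and 53.0 ± 1.16 CPM.

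On the small subunit, MRPS33 and MRPS34, both without a bacterial counterpart, fell alike. MRPS33 stood at 22.9, 26.5 and 19.9 CPM in DMSO, 14, 12.8 and 12.9 with rakicidin A and 12.5, 14.4 and 13.7 with BE-43547A1, so that treated and control libraries did not overlap and the compounds did. The log2 fold changes were -0.80 (SE 0.0986) and -0.77 (SE 0.0953), and the compounds differed by -0.03 with an interval of -0.24 to 0.18. MRPS34 fell by 0.79 on the log2 scale with rakicidin A and by 0.61 with BE-43547A1. Its levels were 52.3 ± 3.84, 30.2 ± 1.12 and 34.3 ± 2.88 CPM (SD, n = 3) in DMSO, rakicidin A and BE-43547A1. The difference between the compounds did not pass (adjusted p = 0.0517, edgeR), and it passed without DMSO replicate 3 or without BE-43547A1 replicate 1 (lowest adjusted p = 0.0127), and also under total counts alone, without a filter on low counts and on the 6 libraries of these groups.

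MRPS25, MRPS26 and MRPS27, also specific to mitochondria, fell further with BE-43547A1. MRPS25 stood at 58.6, 56.3 and 55.4 CPM in DMSO, 38.3, 37.3 and 36.6 with rakicidin A and 29.6, 28.2 and 28.4 with BE-43547A1, with log2 fold changes of -0.60 (SE 0.0582) and -0.98 (SE 0.0580). MRPS26 stood at 17.3 ± 0.719, 11.1 ± 0.529 and 8.66 ± 0.902 CPM, and MRPS27, a pentatricopeptide repeat protein, at 95 ± 4.67, 67.8 ± 0.602 and 52.1 ± 2.44 CPM. In all 3 genes the groups were fully separated and rakicidin A lay between DMSO and BE-43547A1. MRPS14, with a bacterial counterpart, stood at 24.4 ± 2.30, 15.7 ± 1.24 and 13.5 ± 0.398 CPM. It fell with both compounds, and the difference between them lay at the threshold (adjusted p = 0.0518, edgeR). It passed without any 1 of the DMSO libraries or rakicidin A replicate 2, with RLE factors and on the 6 libraries of these groups. MRPS17 stood at 5.05 ± 0.652, 3.49 ± 0.150 and 2.27 ± 0.482 CPM, and its counts of 80 to 189 a library make it one of the less precise members.

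**Figure D4:**
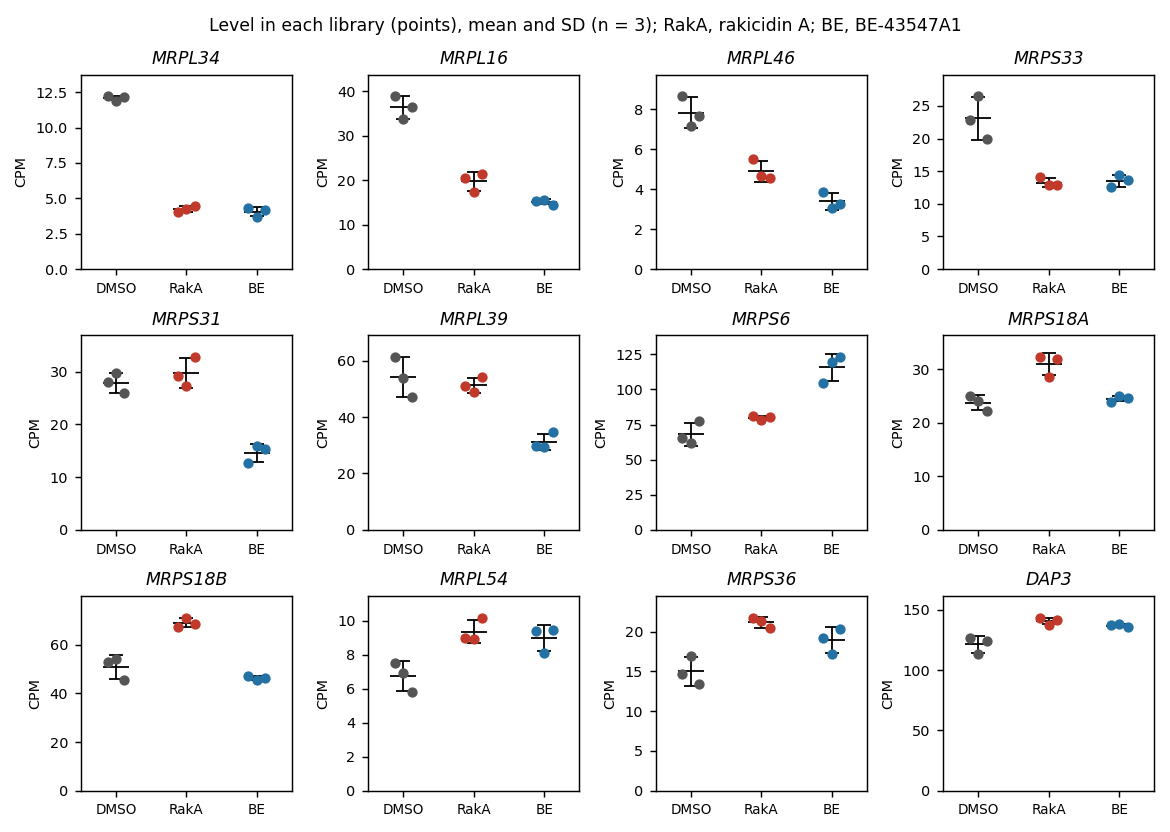
Level in CPM of 12 of the named genes in each library (points) with mean and SD (n = 3) in DMSO (grey), rakicidin A (red) and BE-43547A1 (blue), each axis from 0. MRPL34 and MRPS33 are equally low with both compounds, MRPS31 and MRPL39 are low only in the BE-43547A1 libraries, and MRPS6 is highest in them.

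MRPL15, a large-subunit protein with a bacterial counterpart, rose with both compounds. It stood at 49.8, 47.5 and 50.8 CPM in DMSO, 80.2, 82.6 and 89.8 with rakicidin A and 67.1, 70.9 and 73.0 with BE-43547A1. The 3 groups did not overlap, and the log2 fold changes were 0.77 (SE 0.0604, adjusted p = 1.98e-09, edgeR) and 0.51 (SE 0.0600, adjusted p = 4.53e-07). It was the one member to rise with both compounds under total counts alone, at 0.41 and 0.27.

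A further 6 members rose with both compounds under TMM scaling, and they were less firm. MRPL53 stood at 1.34, 1.23 and 1.02 CPM in DMSO, 2.33, 2.56 and 1.85 with rakicidin A and 1.96, 1.68 and 1.41 with BE-43547A1, with log2 fold changes of 0.92 (SE 0.198) and 0.50 (SE 0.195). Its rise with BE-43547A1 no longer passed without DMSO replicate 2 or 3 or without BE-43547A1 replicate 1 or 2 (highest adjusted p = 0.126), under total counts alone, without a filter on low counts or by DESeq2. CCDC142, whose exons overlap those of MRPL53, rose by 0.78 and 0.73, and where reads on the shared exons went was not tested. MRPL54 rose from 6.75 ± 0.888 to 9.37 ± 0.699 and 8.99 ± 0.766 CPM (SD, n = 3), and the treated libraries lay above all control libraries. MRPL47 rose from 61.7 ± 6.58 to 78.1 ± 2.71 and 73.5 ± 0.708 CPM, and without DMSO replicate 3 its change with BE-43547A1 was 0.16 in place of 0.25. Under total counts alone MRPL54 stood at 0.11 and 0.18 and MRPL47 at -0.02 and 0.02, none of which passed.

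DAP3, the GTP-binding protein of the small subunit, stood at 126, 113 and 124 CPM in DMSO, 143, 138 and 141 with rakicidin A and 137, 138 and 135 with BE-43547A1. Treated libraries lay above control libraries by a small margin, and the log2 fold changes were 0.21 (SE 0.0550) and 0.17 (SE 0.0547). The rise with BE-43547A1 did not pass without DMSO replicate 2 (adjusted p = 0.0788, edgeR), and under total counts alone the values turned to -0.14, which passed as a fall, and -0.06, which did not. MRPS36, the dehydrogenase-associated protein, stood at 14.7, 17 and 13.4 CPM in DMSO, 21.7, 21.3 and 20.4 with rakicidin A and 19.2, 17.2 and 20.4 with BE-43547A1. Its log2 fold changes were 0.50 (SE 0.0913) and 0.34 (SE 0.0897), and under total counts alone they were 0.14 and 0.10 and did not pass. Rows of MRPS36 pseudogenes held 31.3% as many counts as the gene, so reads may have been divided between near-identical copies.

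MRPS6, a small-subunit protein with a bacterial counterpart, rose most with BE-43547A1. It stood at 65.1, 61.5 and 77.3 CPM in DMSO, 80.8, 78.0 and 80.1 with rakicidin A and 105, 119 and 123 with BE-43547A1. BE-43547A1 lay above all other libraries, and rakicidin A lay just above the highest control. The log2 fold changes were 0.77 (SE 0.0765, adjusted p = 5.09e-08, edgeR) and, for rakicidin A, 0.23 (SE 0.0774, adjusted p = 0.0152), which did not pass without DMSO replicate 1 or 2 (highest adjusted p = 0.0840) and turned to -0.13 under total counts alone. MRPL12 and MRPL37 also passed as higher with BE-43547A1, but their libraries overlapped those of DMSO. MRPL12, which stood at 0.917, 0.695 and 1.76 CPM in DMSO and 1.69, 2.12 and 1.83 with BE-43547A1, shares 68.2% of its exon length with another gene. Its change with BE-43547A1 of 0.72 became 1.21 without DMSO replicate 3 and 0.47 without DMSO replicate 2, and the call was lost without DMSO replicate 1 or 2 or BE-43547A1 replicate 2 (highest adjusted p = 0.102) and under total counts alone. With rakicidin A, MRPL12 stood at 1.27, 1.95 and 1.68 CPM and passed only without DMSO replicate 3. MRPL37 changed by 0.18 with BE-43547A1, lost without DMSO replicate 1 or 2 or BE-43547A1 replicate 1 (0.10 without the last) and on the 6 libraries of these groups, and it turned to -0.06 under total counts alone.

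In all, 5 named members rose with rakicidin A and did not pass with BE-43547A1. MRPS18B stood at 53.0, 54.0 and 45.4 CPM in DMSO, 67.2, 70.9 and 68.6 with rakicidin A and 47.0, 45.3 and 46.2 with BE-43547A1, so that only rakicidin A lay apart. The log2 fold change was 0.44 (SE 0.0657) against DMSO and 0.58 (SE 0.0655, adjusted p = 1.01e-06, edgeR) against BE-43547A1. MRPL49 went from 56.3 ± 3.48 to 75.4 ± 4.0 CPM (SD, n = 3) with rakicidin A and 52.6 ± 2.36 with BE-43547A1. MRPL45 went from 24.5 ± 2.07 to 33.6 ± 1.57 and 24 ± 0.923 CPM, and MRPL10 from 13.2 ± 1.41 to 18.2 ± 1.30 and 14.3 ± 0.835 CPM. All 4 passed in the direct comparison of the compounds. Under total counts alone the rises against DMSO shrank to between 0.06 and 0.10 and did not pass, while MRPS18B, MRPL49 and MRPL45 still differed between the compounds and MRPL10 did not (adjusted p = 0.0566, edgeR). The same scaling gave falls with BE-43547A1 that passed, at -0.37 for MRPS18B, -0.33 for MRPL49 and -0.27 for MRPL45. Without DMSO replicate 3, BE-43547A1 passed as well, as a rise of MRPL10 at 0.20 and as falls of MRPS18B at -0.22 and MRPL49 at -0.16. MRPL45 pseudogene rows held 19.6% as many counts as the gene.

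The 3 MRPS18 genes are paralogs whose proteins sit at different places in the particle. MRPS18A, in the large subunit, stood at 25, 24.2 and 22.3 CPM in DMSO, 32.3, 28.6 and 32 with rakicidin A and 24, 25 and 24.7 with BE-43547A1. It rose with rakicidin A by 0.38 (SE 0.0714), as MRPS18B did, and with BE-43547A1 its change was 0.04 with an interval of -0.10 to 0.19, which under total counts alone became -0.19 and passed as a fall. MRPS18C, the bacterial S18 counterpart of the small subunit, stood at 22.8 ± 2.29, 20.9 ± 1.75 and 19.2 ± 0.679 CPM (SD, n = 3) in DMSO, rakicidin A and BE-43547A1. It fell with BE-43547A1 by 0.25 (adjusted p = 0.0122, edgeR), a call lost without DMSO replicate 2 or BE-43547A1 replicate 1 (highest adjusted p = 0.0625), and passed as a fall with rakicidin A without DMSO replicate 3 (-0.21) and under total counts alone (-0.49). Exons of MRPS18A and MRPS18C overlap genes on the opposite strand, RSPH9 and FAM175A, by 47.0% and 40.2% of their length, and the strand setting of the counting is not given in the sources used here. RSPH9 stood at no more than 0.922 CPM, and FAM175A fell by 1.10 with rakicidin A and by 0.89 with BE-43547A1.

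The widest gap between the compounds was at MRPS31, a small-subunit protein specific to mitochondria. It stood at 28, 29.7 and 26 CPM in DMSO, 29.1, 27.3 and 32.8 with rakicidin A and 12.7, 15.9 and 15.3 with BE-43547A1. DMSO and rakicidin A overlapped, and BE-43547A1 lay below both. The log2 fold change with BE-43547A1 was -0.93 (SE 0.0909, adjusted p = 3.65e-08, edgeR), that with rakicidin A was 0.09 with an interval of -0.10 to 0.28, and the compounds differed by 1.02 (SE 0.0916, adjusted p = 6.11e-08). Under total counts alone the value with rakicidin A turned to -0.27 and passed as a fall, and the call between the compounds was kept. The pseudogene row MRPS31P5 fell by 1.52 with rakicidin A and by 2.49 with BE-43547A1, and MRPS31 pseudogene rows together held 3.31% as many counts as the gene.

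MRPL39 followed a like pattern, at 61.3, 53.9 and 47.2 CPM in DMSO, 50.9, 48.9 and 54.0 with rakicidin A and 29.8, 29.4 and 34.6 with BE-43547A1. Its level with rakicidin A was 1.64 times that with BE-43547A1. MRPS30, a large-subunit protein by structure, stood at 67.8 ± 4.67, 73.2 ± 1.80 and 51.8 ± 2.28 CPM (SD, n = 3), fell with BE-43547A1 by 0.39 and did not pass with rakicidin A (0.11, interval -0.02 to 0.24). Both genes passed as falls with rakicidin A as well under total counts alone, MRPL39 at -0.44 and MRPS30 at -0.25. MRPS2, with a bacterial counterpart, stood at 8.08 ± 1.04, 9.35 ± 0.281 and 6.21 ± 0.398 CPM, and its rise with rakicidin A passed only without DMSO replicate 3 (0.32). Of the most abundant members, MRPS35 stood at 192 ± 19.3, 213 ± 4.76 and 159 ± 4.79 CPM and MRPL3 at 185 ± 13.4, 185 ± 2.45 and 153 ± 2.92 CPM, both lower with BE-43547A1. MRPS35 did not pass with rakicidin A (0.15, adjusted p = 0.0518, edgeR), and it did without DMSO replicate 1 or 2 or any 1 BE-43547A1 library, with RLE factors, by DESeq2 and on 6 libraries. Falls with rakicidin A passed under total counts alone for MRPS35 (-0.21) and MRPL3 (-0.36). MRPL18 stood at 93.4 ± 8.20, 97.0 ± 3.03 and 85.9 ± 0.765 CPM. It passed as a fall with BE-43547A1 without DMSO replicate 3 (-0.19) and under total counts alone (-0.36), where it also fell with rakicidin A (-0.30). Its call between the compounds was lost without rakicidin A replicate 1 or 2 or BE-43547A1 replicate 1 or 2, under total counts alone and without a filter on low counts. MRPL38 fell with BE-43547A1 from 2.40 ± 0.361 to 1.37 ± 0.132 CPM, and its call between the compounds was lost without rakicidin A replicate 3 or BE-43547A1 replicate 1, under total counts alone and without a filter on low counts. MRPL38 also fell with rakicidin A under total counts alone (-0.61). MRPS24, at 21 to 35 counts a library, passed in no comparison.

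In the opposite direction, 6 named members were lower with rakicidin A than with BE-43547A1, MRPS6 among them. MRPL51 stood at 87.1, 87.8 and 82.8 CPM in DMSO, 62.6, 58.8 and 62.4 with rakicidin A and 72.6, 78.4 and 73.9 with BE-43547A1. The 3 groups did not overlap, and the log2 fold changes against DMSO were -0.49 (SE 0.0562) and -0.20 (SE 0.0552). MRPL24 fell with rakicidin A from 64.5 ± 5.77 to 48.1 ± 4.07 CPM (SD, n = 3) and stood at 59.0 ± 3.17 with BE-43547A1, whose fall passed without DMSO replicate 3 (-0.20) and under total counts alone (-0.37). MRPL41 fell from 11.4 ± 1.98 to 7.92 ± 0.828 CPM with rakicidin A and stood at 10.4 ± 0.456 CPM with BE-43547A1, which passed as a fall without DMSO replicate 3 (-0.28) and under total counts alone (-0.37). Its call between the compounds was lost without rakicidin A replicate 2 or 3 (highest adjusted p = 0.0612, edgeR). MRPL4 stood at 5.96, 6.13 and 8.55 CPM in DMSO, 5.20, 5.69 and 4.34 with rakicidin A and 6.81, 7.54 and 6.85 with BE-43547A1. Its fall of 0.43 with rakicidin A was 0.24 in size without DMSO replicate 3 and did not pass there or without rakicidin A replicate 3, and the call between the compounds was lost without that last library.

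MRPS16 and MRPS7, small-subunit proteins with bacterial counterparts, had calls in opposite directions. MRPS16 stood at 134, 129 and 120 CPM in DMSO, 136, 149 and 143 with rakicidin A and 106, 102 and 105 with BE-43547A1. The groups did not overlap, though the lowest rakicidin A library lay close to the highest control. The rise of 0.16 (SE 0.0570, adjusted p = 0.0219, edgeR) was lost without DMSO replicate 3 or rakicidin A replicate 2 (highest adjusted p = 0.0730) and without a filter on low counts. It turned to -0.20 under total counts alone and passed there as a fall, so the opposite directions were not called under that scaling, whereas the fall of 0.30 with BE-43547A1 was called in each of these settings.

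MRPS7 stood at 66.5, 67.9 and 57.2 CPM in DMSO, 58.3, 56.1 and 56.3 with rakicidin A and 75, 75.8 and 71.0 with BE-43547A1. DMSO replicate 3 lay among the rakicidin A libraries, and BE-43547A1 lay above all others. The fall of 0.17 with rakicidin A (adjusted p = 0.0327, edgeR) was lost on leaving out any 1 library other than DMSO replicate 3 (highest adjusted p = 0.162), without a filter on low counts, by DESeq2 and on 6 libraries. The rise of 0.21 with BE-43547A1 was 0.13 without DMSO replicate 3 and -0.03 under total counts alone. The difference between the compounds, -0.38 (SE 0.0650, adjusted p = 0.000106, edgeR), was called in every setting tried.

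Genes that work with the mitochondrial ribosome were read from 4 lists. Of 6 ribosomal proteins with other symbols, 4 fell and 0 rose with rakicidin A, and 5 fell and 0 rose with BE-43547A1, where the backgrounds are the 32.7% and 35.1% of features that fell. All 6 fell with each compound under total counts alone, where 51% of all features fell with rakicidin A and 46.7% with BE-43547A1. MRP63 fell from 11.1 ± 0.258 to 8.99 ± 0.409 and 7.06 ± 0.495 CPM (SD, n = 3), and PTCD3, a pentatricopeptide repeat protein of the small subunit, from 140 ± 5.50 to 124 ± 2.40 and 106 ± 4.83 CPM. Their calls with rakicidin A were lost without rakicidin A replicate 3 and replicate 1 in turn (adjusted p = 0.0503 and 0.0580, edgeR). AURKAIP1 stood at 76.7 ± 3.38, 57.7 ± 3.4 and 76.5 ± 4.43 CPM and fell with rakicidin A, while its value with BE-43547A1 did not pass and became a fall of 0.24 that passed under total counts alone, with a difference of -0.41 (SE 0.0628, adjusted p = 3.45e-05) between the compounds. GADD45GIP1 stood at 40.6 ± 0.591, 31.3 ± 1.62 and 35.1 ± 3.16 CPM, and its fall with BE-43547A1 of 0.21 was 0.14 without BE-43547A1 replicate 1 and lost without BE-43547A1 replicate 1 or 2. Its difference between the compounds did not pass, but did without BE-43547A1 replicate 1, under total counts alone and on 6 libraries.

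Of 25 factors of assembly and ribosomal RNA modification, 11 fell and 3 rose with rakicidin A (median -0.11), and 19 fell and 1 rose with BE-43547A1 (median -0.42). Between the compounds 17 were higher and 1 lower with rakicidin A. All features had 32.7% falls and 31.9% rises with rakicidin A, 35.1% and 35.3% with BE-43547A1, and 24.1% higher and 22.5% lower between the compounds. Under total counts alone, 21 factors fell and 1 rose with rakicidin A (median -0.47), 23 fell and 1 rose with BE-43547A1 (median -0.65), and 14 were higher and 2 lower between the compounds. All features under that scaling had 51% falls and 20% rises with rakicidin A, and 46.7% and 26.6% with BE-43547A1. Between the compounds 17.6% of all features were then higher and 30.7% lower. MTERFD2, the partner of the ribosomal RNA methyltransferase NSUN4, stood at 37.4, 39.2 and 40.5 CPM in DMSO, 21.8, 19.0 and 22.1 with rakicidin A and 10.1, 9.29 and 10.6 with BE-43547A1. The 3 groups were fully separated, and the log2 fold changes were -0.90 (SE 0.0762) and -1.96 (SE 0.0790). TFB1M, the dimethyltransferase of the small ribosomal RNA, stood at 34.6 ± 2.64, 22.2 ± 1.02 and 12.2 ± 0.419 CPM, and MALSU1, which keeps the large subunit from joining too early, at 46.2 ± 3.18, 32 ± 4.22 and 21.6 ± 1.89 CPM. MPV17L2, an inner-membrane protein needed for assembly, went the other way, at 2.54, 2.59 and 2.78 CPM in DMSO, 8.59, 8.54 and 8.55 with rakicidin A and 4.09, 4.37 and 4.71 with BE-43547A1. Its log2 fold changes were 1.70 (SE 0.114) and 0.73 (SE 0.117), and it rose under total counts alone as well, at 1.34 and 0.49.

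Of 17 translation factors, 7 fell and 6 rose with rakicidin A, and 10 fell and 3 rose with BE-43547A1, beside the same shares of all features. The 6 rises with rakicidin A became 4 without DMSO replicate 2, without DMSO replicate 3 or without a filter on low counts. Under total counts alone 2 rose and 13 fell with rakicidin A (all features 20% and 51%). With BE-43547A1, 1 rose and 14 fell under that scaling (all features 26.6% and 46.7%). MTFMT, which formylates the initiator methionyl-tRNA, fell from 15.4 ± 0.919 to 6.83 ± 0.652 and 6.34 ± 0.309 CPM (SD, n = 3), and the initiation factors MTIF2 and MTIF3 fell from 149 ± 6.05 to 114 ± 1.64 and 90.5 ± 6.48 CPM and from 27.5 ± 1.01 to 19.5 ± 1.34 and 15.9 ± 0.920 CPM. MTRF1L, a release factor, rose from 18 ± 1.22 to 29.4 ± 0.362 and 27 ± 2.12 CPM, also under total counts alone (0.35 with each compound).

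The mitochondrial ribosomal RNAs were read at low levels for such abundant RNAs, and DMSO replicate 3 differed from its group. MT-RNR1, the small-subunit RNA, stood at 4.89, 5.75 and 14.8 CPM in DMSO, 23.6, 12.4 and 19.1 with rakicidin A and 24.6, 19.5 and 27.5 with BE-43547A1. MT-RNR2, the large-subunit RNA, stood at 23.0, 27.2 and 95.5 CPM in DMSO, 97.8, 65.1 and 88.4 with rakicidin A and 151, 175 and 153 with BE-43547A1. BE-43547A1 lay above every control for both RNAs, and rakicidin A overlapped DMSO replicate 3. The log2 fold changes were 1.10 and 0.78 with rakicidin A and 1.48 and 1.71 with BE-43547A1, and without DMSO replicate 3 those of MT-RNR1 and MT-RNR2 with rakicidin A were 1.78 and 1.74 and that of MT-RNR2 with BE-43547A1 was 2.66. The MT-RNR2 call with rakicidin A (adjusted p = 0.0458, edgeR) was lost without DMSO replicate 1 or 2, rakicidin A replicate 1 or 3 or BE-43547A1 replicate 3 (0.45 at the lowest), under total counts alone (0.42), by DESeq2 (adjusted p = 0.235) and on 6 libraries (adjusted p = 0.0818, edgeR). Its lower level with rakicidin A than with BE-43547A1 was lost without rakicidin A replicate 2 or 3 or BE-43547A1 replicate 2 and by DESeq2. That of MT-RNR1 did not pass, but did without DMSO replicate 3, without a filter on low counts and on 6 libraries.

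**Figure D5:**
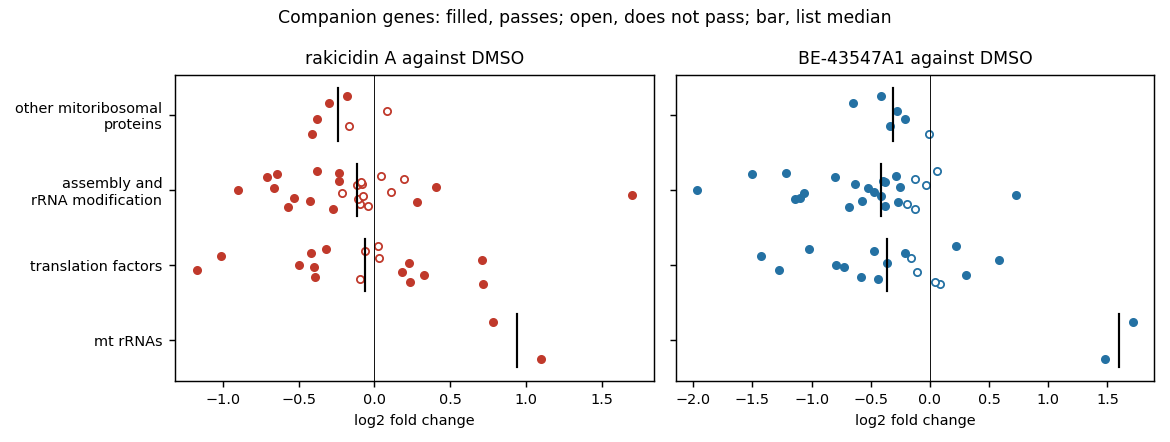
Log2 fold change against DMSO of each gene of the 4 companion lists (6, 25, 17 and 2 genes), filled where the test passed, with the list median as a bar. Most assembly factors lie left of 0 with BE-43547A1 (median -0.42), and the mitochondrial ribosomal RNAs lie right of 0 with both compounds.

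The counting of several members is uncertain. Rows for 68 pseudogenes of 33 members are in the table, and 40 of them hold counts, with more than 1% of the gene's own counts for 6 members. With members left out whose exons are shared with another gene on over 20% of their length in GENCODE v29 by 1 gene, 64 remained. Of these, 30 fell and 12 rose with rakicidin A (46.9% and 18.8%; all features 32.7% and 31.9%). With BE-43547A1, 35 fell and 8 rose (54.7% and 12.5%; all features 35.1% and 35.3%).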

How the data were processed

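Total RNA of the 9 PANC-1 libraries was sequenced as pairs of 76 bases, per the labels' protocols. The authors deposited raw counts per feature in 1 table for GENCODE and other catalogues; the submitters' processing notes name TopHat2, HTSeq, GRCh37 and hg19, and the strand setting is not given in the sources used here. Reads without a feature (16.4% to 20.8% of each library's table total), ambiguous reads (2.65% to 2.94%) and multiply aligned reads (19.1% to 22.4%) stayed out. Counts were tested on all 22353 features that passed filterByExpr with edgeR 4.0.16 in R 4.3.3. The test used TMM factors and quasi-likelihood, with each feature's spread moderated by that of the other features. The 9 libraries shared 1 spread, with 6 residual degrees of freedom before that moderation. Adjustment was by Benjamini-Hochberg, with a threshold of 0.05. CPM use TMM-scaled totals, and SD are over 3 libraries. Columns were matched to groups by title. Exon lengths and overlaps came from GENCODE v29 (GRCh38), by ID for 77 members and by symbol for 2. Named genes are the 10 largest rises and 10 largest falls per compound among those passing, the 6 largest each way between compounds, opposite calls, the 3 highest and 3 lowest per length, MRPS18A, MRPS18B, MRPS18C, MRPS30, MRPS36 and DAP3, and up to 4 genes per companion list. Members, lists and promoter motifs were chosen with earlier results of these data known. Alternatives were RLE factors, total counts, no filter, DESeq2 1.42.0, 6 libraries, a replicate block, leaving out each library and subunits by structure. The test was tried on simulated data.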

Additional observations from a re-analysis of the deposited data

How the results depend on the processing

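With total counts alone in place of TMM factors, 2 members rose and 61 fell with rakicidin A (median -0.471; all features 20% and 51%), 2 rose and 63 fell with BE-43547A1 (median -0.511; all features 26.6% and 46.7%), and 26 were higher and 19 lower with rakicidin A than with BE-43547A1 (median 0.0846; all features 17.6% and 30.7%). The same scaling turned the sign of MRPS18A (-0.193), MRPS7 (-0.0256), MRPL37 (-0.0609) and DAP3 (-0.0645) with BE-43547A1, and of MRPL47 (-0.0174), MRPS6 (-0.131), MRPL37 (-0.275), DAP3 (-0.145), MRPS31 (-0.268), MRPS16 (-0.201), MRPS35 (-0.209), MRPL18 (-0.302) and MRPS30 (-0.249) with rakicidin A. It moves all features down together, as the report gives.

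Without a filter on low counts, which adds 3 rows, the median between the compounds was 0.178 and the large minus small difference there -0.0958. With subunits by structure that difference was -0.0797, and for rakicidin A against DMSO it was 0.00245.

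Leaving out 1 library at a time gave 13 to 15 rises and 29 to 38 falls with rakicidin A, with medians of -0.178 to -0.0817 and large minus small differences of -0.191 to -0.0952. With BE-43547A1 it gave 6 to 10 rises, the lowest without DMSO replicate 2, 40 to 56 falls, medians of -0.333 to -0.230 and differences of 0.126 to 0.206. Between the compounds it gave 34 to 43 higher members and 5 to 11 lower, the lowest without rakicidin A replicate 3, with medians of 0.192 to 0.222 and differences of -0.165 to -0.120. Over all features these fits gave 29.1% to 31.6% rises and 28.9% to 32.5% falls with rakicidin A. With BE-43547A1 they gave 32.9% to 34.9% rises and 32.4% to 34.4% falls. Between the compounds 20.1% to 25% of all features were higher and 16.9% to 23.6% lower.

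The labels tie no replicate number to a batch, and deviations of same-numbered libraries correlated between -0.0566 and 0.122, so the numbers were not taken as pairs. With the replicate block, 14 members rose and 34 fell with rakicidin A (all features 31.8% and 32.4%). With BE-43547A1, 10 rose and 43 fell (all features 35.2% and 34.9%), and 38 were higher and 10 lower between the compounds (all features 23.9% and 22.3%). RLE factors, DESeq2 and the fit on 6 libraries kept each count of members called within 1.5 times. For the lists of companion genes they did so as well, except that 1 of the 2 ribosomal RNAs rose with rakicidin A on 6 libraries or by DESeq2, and that between the compounds each of the 4 lists had 2 genes lower on 6 libraries in place of 1, and the ribosomal RNAs 0 by DESeq2. MRPL12, MRPL38, MRPL53 and MRPS24 hold few counts, which limits their precision.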
